A study of Homo sapiens with 6 samples.

Results

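A set of 10 genes of the hypoxia response and of glycolysis were followed in chromatin accessibility data from A375 cells, an established human melanoma line. These were SLC2A1, HK2, PFKFB3, PGK1, ENO1, LDHA, HIF1A, VEGFA, CA9 and NDRG1. Every accessible region that the authors' deposited tables named for one of the 10 genes was kept, at any distance and once per region, which gave 224 of the 226920 regions in the series. Accessibility had been measured by ATAC-seq, which reads out where a transposase, Tn5, can reach and cut the DNA of nuclei. The libraries formed 3 groups of 2: A375 cells left untreated (mock), A375 cells treated with recombinant HMGA1 for 2 h, and A375 cells treated with it for 18 h. HMGA1 is an architectural chromatin protein that binds AT-rich DNA. No genetic change separated the groups in the labels, the cells were frozen alive before nuclei were made, and no dose of HMGA1 and no time for the mock cells are given there. Both libraries of a group are labelled as biological replicates, but separate cultures are not mentioned, so the p-values measure only how far these libraries spread, which may be technical.

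Glycolysis splits glucose into pyruvate, which lactate dehydrogenase reduces to lactate when oxygen is short or when tumour cells favour this route. The transcription factor HIF pairs an oxygen-sensitive alpha subunit, encoded by HIF1A, with a constant beta subunit, ARNT. Without oxygen the alpha subunit escapes prolyl hydroxylation and VHL-directed breakdown, and the dimer binds a short core, ACGTG or GCGTG, near genes for glucose uptake, glycolysis, blood vessel growth and acid handling. Melanoma cells are known for active glycolysis, and all 3 groups were compared without a labelled change in oxygen.

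The promoters of SLC2A1, LDHA, PGK1 and CA9 are shown because they span the range found here, from strongly to weakly accessible and from no HIF core to several. Each line gives the 250 bases before the RefSeq start (GRCh38.p14), 5′ to 3′ in the direction of transcription, with every ACGTG or GCGTG core in capitals on either strand (CACGT or CACGC when read on the opposite one; overlapping cores form 1 run, and CACGTG holds an ACGTG core on both strands).
SLC2A1, chr1:42958869-42959118, minus strand: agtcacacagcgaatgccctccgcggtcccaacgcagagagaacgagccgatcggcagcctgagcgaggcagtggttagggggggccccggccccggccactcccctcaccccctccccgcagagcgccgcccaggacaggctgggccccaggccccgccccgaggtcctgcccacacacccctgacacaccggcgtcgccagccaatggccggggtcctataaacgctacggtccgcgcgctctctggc
LDHA, chr11:18394313-18394562, plus strand: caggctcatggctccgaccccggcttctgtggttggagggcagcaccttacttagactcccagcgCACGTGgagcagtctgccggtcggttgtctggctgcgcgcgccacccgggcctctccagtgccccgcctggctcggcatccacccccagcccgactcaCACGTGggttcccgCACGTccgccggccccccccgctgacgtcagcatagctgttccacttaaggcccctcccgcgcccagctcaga
PGK1, chrX:78103998-78104247, plus strand: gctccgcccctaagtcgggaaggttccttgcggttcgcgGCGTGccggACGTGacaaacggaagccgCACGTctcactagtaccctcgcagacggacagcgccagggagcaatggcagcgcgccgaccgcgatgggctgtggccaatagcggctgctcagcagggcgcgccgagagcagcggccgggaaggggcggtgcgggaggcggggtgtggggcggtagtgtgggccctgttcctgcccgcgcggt
CA9, chr9:35673678-35673927, plus strand: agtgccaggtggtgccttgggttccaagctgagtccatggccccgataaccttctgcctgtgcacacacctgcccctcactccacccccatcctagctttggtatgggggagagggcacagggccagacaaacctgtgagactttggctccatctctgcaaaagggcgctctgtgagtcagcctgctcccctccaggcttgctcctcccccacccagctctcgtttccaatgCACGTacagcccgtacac

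Each of these 4 stretches lay wholly inside an accessible region. The SLC2A1 stretch held 0 cores, PGK1 held 3 in 3 runs, and CA9 held 1, which began 18 bases before the start. LDHA held 5 cores in 3 runs, since 2 of its runs were CACGTG. A core of either kind was present in 43.2% of the 35116 RefSeq promoter stretches of this length, ACGTG in 18.5%, GCGTG in 32.2% and CACGTG in 6.34%. The GC content was 72.4% for SLC2A1, 69.6% for LDHA, 71.2% for PGK1 and 60.4% for CA9, beside a median of 58.0% over all promoters. RefSeq promoters were at hand for 8 of the 10 genes, all but VEGFA and NDRG1. A match describes letters only.

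The deposited tables hold no value of a single library. They give 1 mean signal per region over the 6 libraries (a normalised read count, scaled for library size by the authors), and, per comparison, a log2 fold change with its standard error (SE) and an adjusted p from DESeq2. The depth of each library is unknown. A region counts as called at a deposited adjusted p below 0.05. The authors' adjustment left out regions under a limit of mean signal, and these are called not tested here. Such regions still carry an unadjusted p. The limit, read from the deposited values, was 56.2 in the comparison of 2 h with mock. It was 101 in that of 18 h with mock and 41.7 in that of 18 h with 2 h. The group levels given below are those implied by the deposited mean and both fold changes with mock. They are approximate, and carry no error of their own. The melanocyte lineage genes MITF, SOX10 and PMEL had a region at their start (mean signals 694, 63.8 and 298), TYR, MLANA and DCT had none there, and among the undifferentiated melanoma genes JUN (1219), NGFR (376) and SOX9 (224) had a start region and AXL did not. None of the 3 keratinocyte, 3 fibroblast, 2 endothelial and 3 immune genes checked had a region at distance 0.

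Accessibility at the gene starts was present for all 10 genes and was not called as changed for any of them. The mean signal of the region nearest to the RefSeq start, all of the same length, ran from 64.2 at CA9, which encodes a carbonic anhydrase on the cell surface, to 1177 at NDRG1, a stress-responsive gene. Between them, in rising order, stood PFKFB3 (236), VEGFA (445), LDHA (490), HK2 (544), ENO1 (654), SLC2A1 (756), PGK1 (774) and HIF1A (984). These means carry no error in the tables, so which neighbours in this order differ beyond the spread was not tested. Beside the 9507 regions at distance 0 from any gene start, CA9 stood at the 13.1 percentile of mean signal and NDRG1 at the 97.6 percentile. The start region contained the RefSeq start in 6 genes and lay at most 248 bases from it in the other 4, and it was the strongest region of its gene in 6.

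At 2 h, DESeq2 called 0 of the 10 start regions (the authors' deposited table), with 2 at an unadjusted p under 0.05. Among all 8354 tested regions at distance 0 from a start, 0.0958% were called. The start regions of SLC2A1 and ENO1 were those with the small p. SLC2A1 encodes the glucose transporter GLUT1, and its implied level was 807 in mock, 709 at 2 h and 751 at 18 h. Its log2 fold change at 2 h was -0.19 ± 0.09 (SE; adjusted p = 0.482, DESeq2, authors' deposited table). ENO1 encodes enolase, and its start had implied levels of 673, 579 and 709, with -0.22 ± 0.11 (adjusted p = 0.485, DESeq2, authors' deposited table) at 2 h. Both were low at 2 h relative to mock and to 18 h, by less than the test could separate from the spread between libraries.

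In the authors' deposited table the other start regions at 2 h lay between -0.22 at PFKFB3 and 0.01 at PGK1, a kinase gene whose product yields ATP in glycolysis. The median over the 10 was -0.15, beside -0.11 over all tested regions at distance 0, so starts in general lay below 0 at 2 h. This was not particular to starts. The median over all tested regions was -0.06, and 32.1% of all regions with a mean signal of 100 or more lay above mock. The 95% intervals bound what may have been missed. For NDRG1 the interval ran from -0.22 to 0.09 and for HIF1A from -0.31 to 0.02, while for CA9 it ran from -0.69 to 0.47, because its signal was low.

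At 18 h against mock, DESeq2 called 0 of the 9 tested start regions (the authors' deposited table), 1 had an unadjusted p under 0.05, and 0 of 7851 tested starts in the whole series were called. That one was PFKFB3, which encodes the enzyme that makes the bisphosphate activator of phosphofructokinase. Its start had -0.38 ± 0.18 (SE; adjusted p = 0.555, DESeq2, authors' deposited table), and its implied levels were 269 in mock, 231 at 2 h and 207 at 18 h. LDHA, the lactate dehydrogenase gene, had implied levels of 532, 479 and 460, with -0.21 ± 0.11 at 18 h in the authors' deposited table. HIF1A had 1014, 918 and 1022, so its start lay within 1 SE of mock at 18 h. VEGFA, the gene of the main vessel growth factor, had 461, 439 and 434. HK2, the hexokinase that traps glucose in the cell, had 581, 508 and 543. From 2 h to 18 h, 0 of 10 starts were called by DESeq2 (0.268% of all tested starts were), and 1 had an unadjusted p under 0.05, ENO1 with 0.29 ± 0.11 (adjusted p = 0.133, DESeq2, authors' deposited table).

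**Figure D1:**
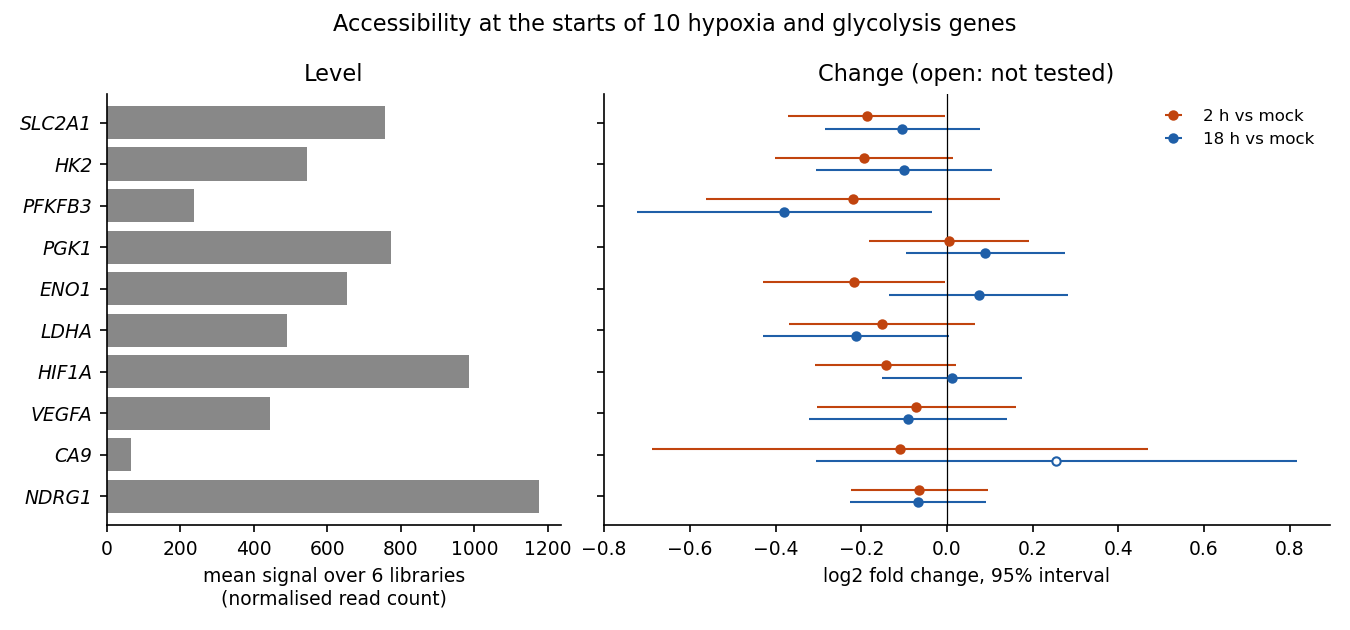
The left panel plots the mean signal over the 6 libraries (normalised read count) of the region nearest to each RefSeq start, and the right panel its log2 fold change against mock at 2 h and at 18 h with the 95% interval from the authors' standard error; an open point was not tested. The bars run from 64.2 at CA9 to 1177 at NDRG1, and no point was called.

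The deposited distances of PGK1 run from a place other than its RefSeq start. The region that contains its RefSeq start (chromosome X, 78103793 to 78104294), with the highest mean signal of the gene (774), was listed in the authors' deposited table at 193 kb from the start. The PGK1 region listed at distance 0 lies 193 kb upstream (77910360 to 77910861, mean signal 332), overlaps the span of ATP7A and carries a second gene name as well. Neither was called in any comparison. At the RefSeq start the log2 fold changes were 0.01 ± 0.10 at 2 h and 0.09 ± 0.09 at 18 h (SE, authors' deposited table). The HK2 region containing the RefSeq start was likewise listed at 901 bases. PFKFB3 has a second RefSeq promoter inside the gene, and the region over it (mean signal 489) was stronger than the one at the first start (236). In the authors' deposited table the second had -0.23 at 2 h and -0.16 at 18 h, neither of them called.

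Away from the starts, 11 regions of 6 genes were called in at least 1 comparison, and HK2, PGK1, LDHA and CA9 had none. Shares over all regions are given below by comparison. At 2 h against mock 1.28% of all tested regions were called, and HK2 had 10 tested regions, PGK1 5, LDHA 3 and CA9 2. Few calls would fall in so few regions, so the lack of a call does not set these 4 genes apart. The 224 regions had a median mean signal of 46.0, beside 39.3 over all regions of the series, and 120 lay in the span of their gene, 76 upstream and 28 downstream. The 11 called regions lay from 17.8 to 109 kb from the named start. Of these, 3 were inside SLC2A1, 1 was inside PFKFB3, 6 lay upstream of their gene and 1 downstream of VEGFA. Of the 7 outside a member's span, 4 touched no RefSeq gene and 3 touched long noncoding RNA genes. A name gives the gene start the authors assigned, not the gene a region acts on. Exons and introns were not analysed here.

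At 2 h against mock, 2 of 102 tested regions were called, both lower (1.96%), beside 1.28% of all regions tested, 0.421% lower and 0.856% higher. The series-wide split by direction depends on the centring: it was 737 higher and 363 lower as deposited, 1179 and 198 centred on the median tested region, and 1249 and 173 centred within bins of mean signal. The region of ENO1 lies 32.1 kb upstream (chromosome 1, 8911326 to 8911827), in the span of the noncoding RNA gene LINC03153. Its implied level was 460 in mock, 313 at 2 h and 426 at 18 h, the 2 h group being the low one. It fell 1.47-fold at 2 h (log2 fold change -0.56 ± 0.13, SE; adjusted p = 0.00268, DESeq2, authors' deposited table), and stood at -0.11 ± 0.12 (adjusted p = 0.942) at 18 h.

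The other region that fell at 2 h was that of NDRG1 at 87.7 kb upstream (chromosome 8, 133385315 to 133385816). Implied levels were 456 in mock, 336 at 2 h and 418 at 18 h. The log2 fold change at 2 h was -0.44 ± 0.13 (SE; adjusted p = 0.0394, DESeq2, authors' deposited table). This call was lost when the fold changes were centred on the median tested region (-0.38, adjusted p = 0.104, Benjamini-Hochberg on the authors' SE), whose uncentred median was -0.06. Under the same centring a region 49.3 kb upstream of SLC2A1, described below, was called as higher at 2 h (0.79, adjusted p = 0.0341), so the 2 calls were then split between the directions.

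The median log2 fold change of the 102 tested regions at 2 h was -0.06, equal to 2 decimals to that of all tested regions. By gene, the median over tested regions ran from -0.14 for HIF1A (3 regions) and -0.11 for CA9 (2 regions) to 0.03 for ENO1 (19 regions) and 0.04 for SLC2A1 (18 regions), in the authors' deposited table. The smallest distance between 2 genes in this measure was 0.0054, between PFKFB3 and VEGFA, and SLC2A1 was nearest to ENO1, at 0.011. These are descriptions of few regions each.

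At 18 h against mock, 1 of 57 tested regions was called (1.75%), beside 0.121% of all regions tested, 0.116% lower and 0.00542% higher. It lies inside SLC2A1, 22.3 kb from the start (chromosome 1, 42936352 to 42936853). The implied level was 704 in mock, 624 at 2 h and 494 at 18 h, lowest at 18 h. It fell 1.42-fold (log2 fold change -0.51 ± 0.10, SE; adjusted p = 0.00421, DESeq2, authors' deposited table), and the adjusted p was 0.0668 after centring on the median tested region. The median over the 57 regions was -0.10, beside -0.07 over all regions tested.

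The comparison of 18 h with 2 h tested directly whether both exposures differed. Here 10 of 128 tested regions were called, 7 lower and 3 higher (7.81%), beside 3.48% of all regions tested, 2.98% lower and 0.498% higher. Without SLC2A1, which held 4 of the calls, 6 of 105 were called (5.71%), 3 in each direction. The median log2 fold change of the 128 was -0.01, beside 0.01 over all tested regions. The comparisons share libraries: the 2 h group enters both 2 h against mock and 18 h against 2 h, so a chance high or low value at 2 h would appear in both with opposite signs. The values are therefore set side by side.

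**Figure D2:**
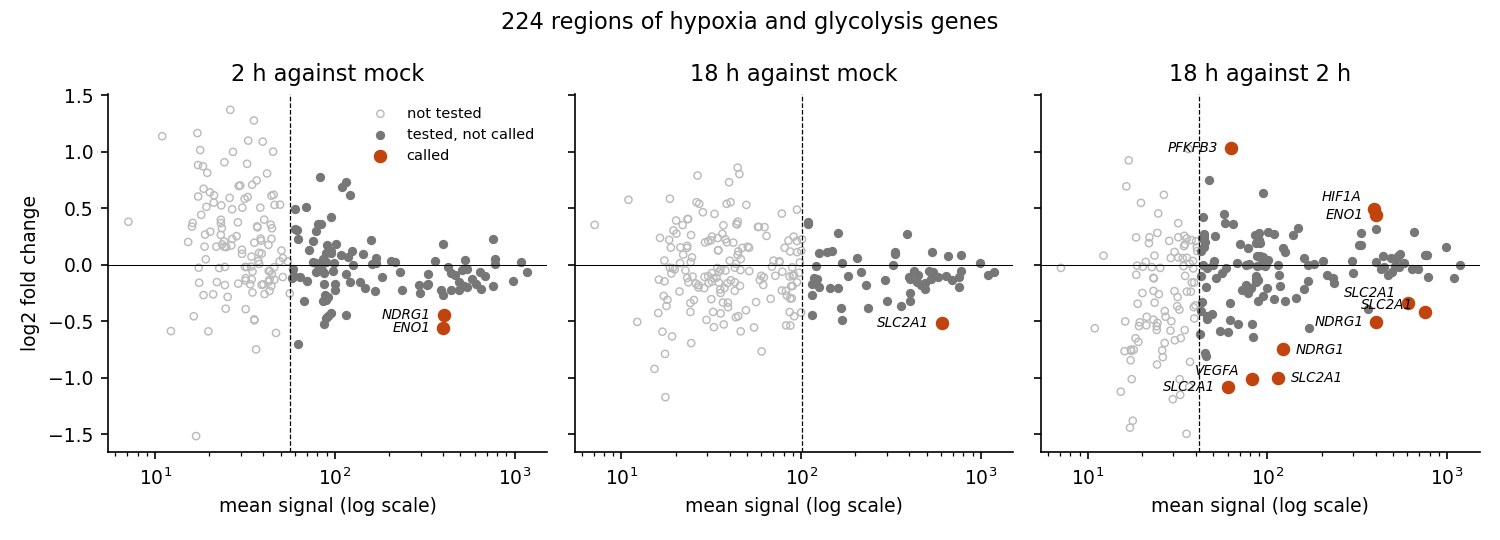
Each panel plots the 224 regions of the 10 genes in 1 comparison, with mean signal (log scale) on the x axis and the deposited log2 fold change on the y axis; the dashed line is the authors' limit of mean signal, open points were not tested and named points were called. Calls numbered 2, 1 and 10 from left to right, and the scatter widens towards low signal.

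Regions lower at 18 h than at 2 h belonged to SLC2A1, VEGFA and NDRG1. The SLC2A1 region 49.3 kb upstream (chromosome 1, 43008509 to 43009010) had implied levels of 98.5 in mock, 164 at 2 h and 81.9 at 18 h, the 2 h group being the high one. It fell 2.00-fold from 2 h to 18 h (log2 fold change -1.001 ± 0.23, SE; adjusted p = 0.00125, DESeq2, authors' deposited table), with 0.73 ± 0.23 (adjusted p = 0.0716) for 2 h against mock. The VEGFA region, 80.9 kb downstream (chromosome 6, 43851081 to 43851582), had implied levels of 69.2, 119 and 59.0, again highest at 2 h. It fell 2.01-fold (-1.01 ± 0.26; adjusted p = 0.0069, DESeq2, authors' deposited table), with 0.78 ± 0.26 (adjusted p = 0.117) for 2 h against mock.

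The 2 NDRG1 regions of this kind lie 58.5 and 109 kb upstream, on the same side of the gene as the one that fell at 2 h. The nearer (chromosome 8, 133356121 to 133356622) had implied levels of 411, 466 and 329. It fell by 0.50 ± 0.12 on the log2 scale from 2 h to 18 h (adjusted p = 0.00328, DESeq2, authors' deposited table). For 2 h against mock it had 0.18 ± 0.12 (adjusted p = 0.686, DESeq2, authors' deposited table). The farther (133406572 to 133407073) had 106, 163 and 97.0, with -0.75 ± 0.21 (adjusted p = 0.0191, DESeq2, authors' deposited table). For 2 h against mock it had 0.62 ± 0.21 (adjusted p = 0.137, DESeq2, authors' deposited table). So of 3 called regions upstream of NDRG1, 2 had their highest implied level at 2 h and 1 its lowest. Only the last was called at 2 h against mock. The strong start region (1213, 1160 and 1158) lay within 1 SE of mock at both times.

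Regions higher at 18 h than at 2 h were those of HIF1A, ENO1 and PFKFB3. The HIF1A region lies 32.6 kb upstream (chromosome 14, 61662394 to 61662895) and touches no RefSeq gene. Its implied levels were 382 in mock, 327 at 2 h and 462 at 18 h. It rose 1.41-fold from 2 h to 18 h (log2 fold change 0.50 ± 0.12, SE; adjusted p = 0.00369, DESeq2, authors' deposited table), whereas neither comparison with mock was called (-0.22 ± 0.12 at 2 h and 0.27 ± 0.12 at 18 h). The ENO1 region that fell at 2 h rose by 0.44 ± 0.13 (adjusted p = 0.0181, DESeq2, authors' deposited table). The PFKFB3 region, 102 kb inside the gene (chromosome 10, 6247238 to 6247739), had implied levels of 65.3, 40.2 and 82.2. It rose 2.04-fold (1.03 ± 0.30; adjusted p = 0.026, DESeq2, authors' deposited table) at a mean signal of 62.6, where the limit for testing was 41.7.

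**Figure D3:**
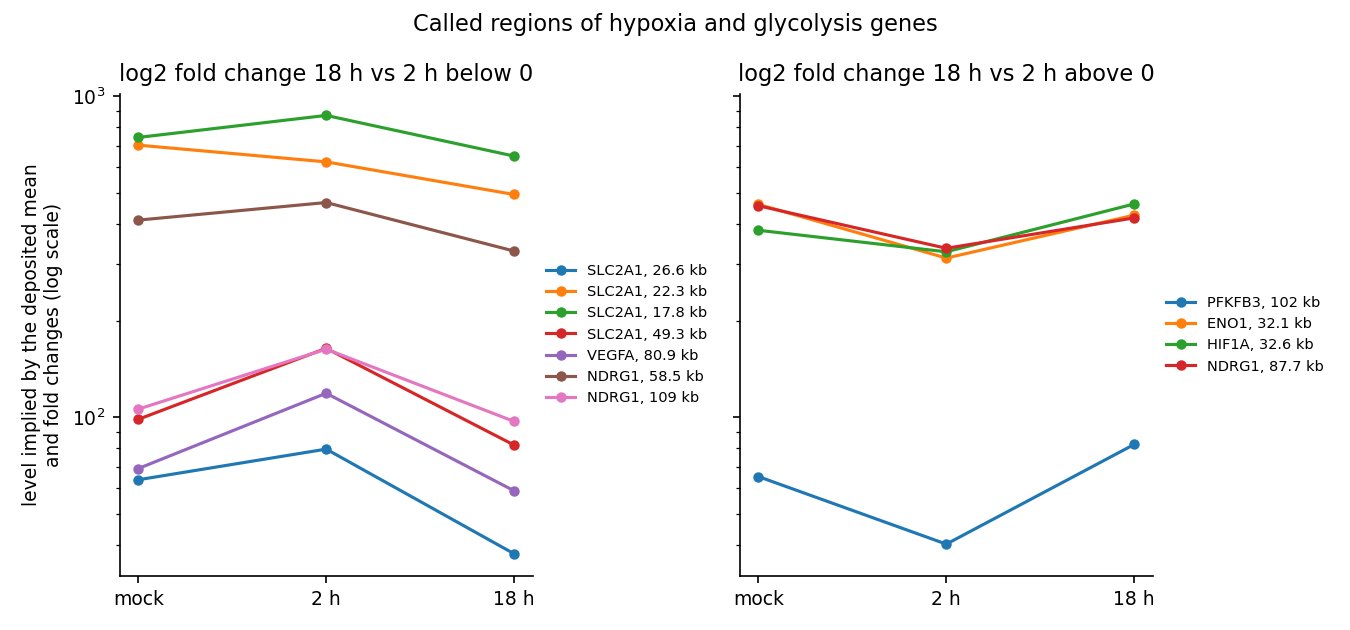
Lines join the levels (log scale) implied by the deposited mean and fold changes in mock, at 2 h and at 18 h for the 11 called regions, split by the sign of the 18 h against 2 h log2 fold change and labelled with the deposited distance. The SLC2A1 region at 49.3 kb goes from 98.5 to 164 to 81.9, and the ENO1 region from 460 to 313 to 426.

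SLC2A1 had the most regions of the 10 genes. It had 47 of the 224, and 29 of them in its span of 33.5 kb (chromosome 1, 42925353 to 42958868), or 0.865 per kb. Of 1353 protein-coding genes with at least 20 regions in their span, 1.18% had that many per kb or more, and the median was 0.136. A short span reaches 20 regions only if they are dense, so this share does not rank SLC2A1 among genes of its length. ENO1, with 13 regions in a span of 17.7 kb, was not among the 1353. Only 6 of the 29 had a mean signal of 100 or more, and the other 23 ran from 19.5 to 88.7; this split was chosen after the values were seen.

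The weak and the strong regions in the SLC2A1 span leaned in different directions at 2 h, a difference that was not tested. All 23 weak regions lay above mock, with a median log2 fold change of 0.51 in the authors' deposited table, while of the 6 strong ones 2 lay above mock (33.3%) and the median was -0.10. Only 5 of the weak regions were tested, and DESeq2 called 0 of them, with 0 at an unadjusted p under 0.05. Of the 18 not tested, 4 had an unadjusted p under 0.05 in the authors' deposited table, all above mock, with the smallest at 0.00347 (log2 fold change 1.37 ± 0.47, SE). Among all regions of the series, 56.1% of those with a mean signal under 100 lay above mock at 2 h and 32.1% of those of 100 or more, so the share for the strong regions was near that of the series, and weak and strong regions leaned apart there too. In the spans of the other 9 genes 37 of 69 weak regions did (53.6%). Summed over the 23 weak regions, the implied level was 864 in mock, 1214 at 2 h and 784 at 18 h, and over the 6 strong regions it was 3437, 3321 and 2960.

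At 18 h against mock, 7 of the 23 weak regions lay above mock (30.4%) and 16 below, and none of the 23 was tested. Of all regions with a mean signal under 100, 56.1% lay above mock at 18 h. In the spans of the other 9 genes 35 of 69 weak regions did (50.7%). From 2 h to 18 h, 22 of the 23 had a log2 fold change under 0, with a median of -0.64, beside 49.4% of all regions with a mean signal under 100. That comparison again uses the 2 h libraries. Among the genes with at least 20 regions in their span, 2.22% had as large a share of regions above mock at 2 h as SLC2A1 (86.2% of its 29). PFKFB3, the other listed gene with at least 20, had 50.0% of 28.

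Inside the span, 3 regions were called from 2 h to 18 h, all lower. The strong region at 17.8 kb from the start (chromosome 1, 42940908 to 42941409) had implied levels of 744 in mock, 871 at 2 h and 651 at 18 h, and fell by 0.42 ± 0.10 (SE; adjusted p = 0.00282, DESeq2, authors' deposited table). The strong region at 22.3 kb, the one that fell at 18 h against mock, fell by 0.34 ± 0.10 (adjusted p = 0.0386, DESeq2, authors' deposited table). The weak region at 26.6 kb (42932069 to 42932570) had 63.8, 79.5 and 37.5, and fell 2.12-fold (adjusted p = 0.0278, DESeq2, authors' deposited table). The regions just upstream, including 1 of mean signal 401 at 7.92 kb, were not called in any comparison.

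**Figure D4:**
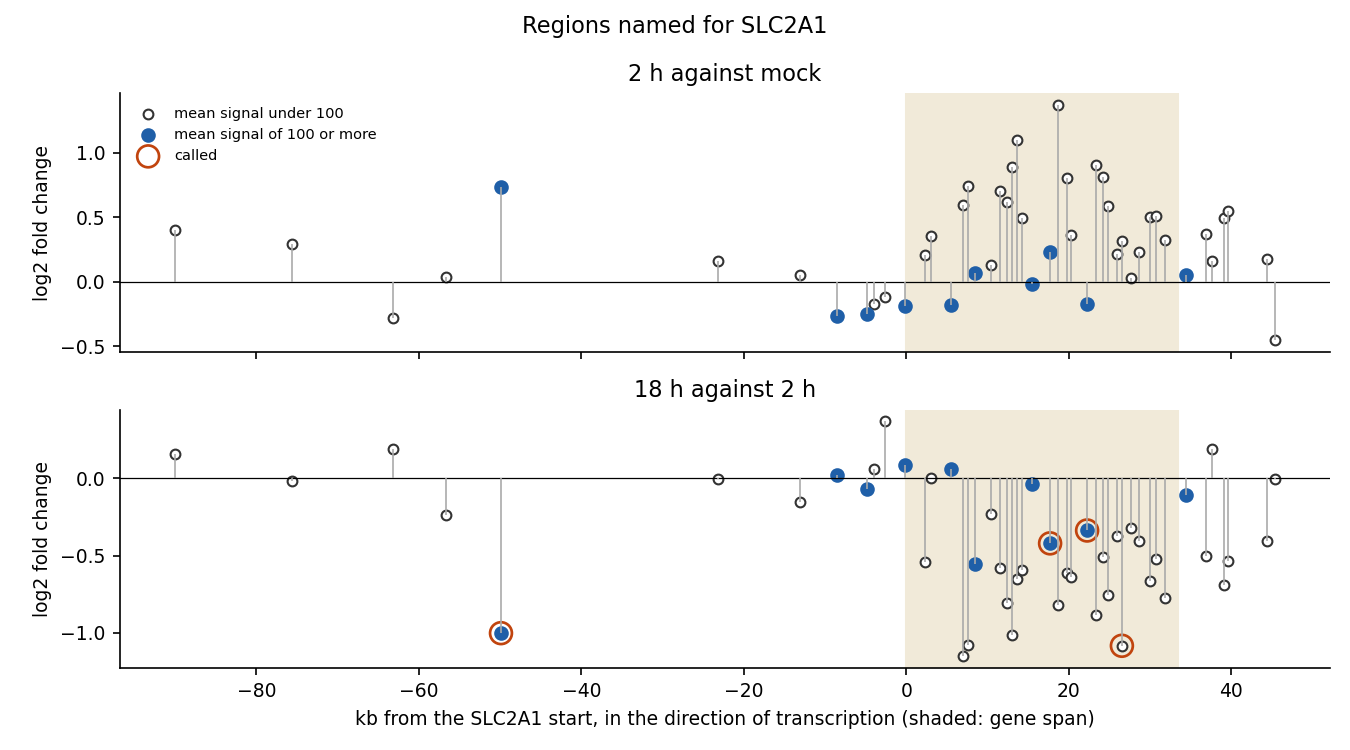
The 47 regions named for SLC2A1 are plotted by their distance (kb) from the RefSeq start in the direction of transcription, with deposited log2 fold changes on the y axis, 2 h against mock in the upper panel and 18 h against 2 h in the lower; the shaded band is the gene span, open points have a mean signal under 100 and rings mark calls. In the upper panel all 23 open points of the span lie above 0, and in the lower panel 22 of them lie below it.

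For the 4 genes with no call, the regions nearest to one are given. HK2 had 20 regions, 10 of them tested at 2 h, and its smallest p among tested comparisons was at 8.15 kb (log2 fold change from 2 h to 18 h -0.53 ± 0.27, unadjusted p = 0.0478, authors' deposited table). For PGK1 it was at the region listed at 114 kb (unadjusted p = 0.0455 at 18 h against mock, authors' deposited table). That region overlaps the span of the protein-coding gene ATP7A and lies 79.5 kb upstream of the PGK1 RefSeq start. LDHA had 9 regions, of which 3 were tested at 2 h, its strongest being 10.4 kb upstream, outside any RefSeq gene (mean signal 1092), with 0.03 ± 0.08 at 2 h and -0.09 ± 0.08 at 18 h in the authors' deposited table. All 9 LDHA regions had a log2 fold change under 0 from 2 h to 18 h (median -0.51), while 51.3% of all regions lay above 0. The median over the 4 tested there was only -0.09. DESeq2 called 0 of these 4, 0 of them at an unadjusted p under 0.05. At 18 h against mock 8 of the 9 were under 0 (median -0.43, authors' deposited table), while 49.8% of all regions lay above mock. The median over the 3 tested was -0.09, and 0 of them were called, 0 at an unadjusted p under 0.05. CA9 had 3 regions, all within its span of 7.23 kb and with mean signals from 40.1 to 64.2; 2 were tested at 2 h and 0 at 18 h against mock.

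Other genes of the pathway were read from 3 wider lists. Among 18 other glycolysis, glucose and lactate genes, DESeq2 called 0 of 77 tested regions at 2 h (7 at an unadjusted p under 0.05) and 0 of 49 at 18 h (2 under 0.05), per the authors' deposited table. Of all regions tested, 1.28% were called at 2 h and 0.121% at 18 h against mock, so few calls would fall in lists of this size. From 2 h to 18 h, 4 of 101 were lower (3.96%, beside 3.48% of all regions tested). In the authors' deposited table these were 2 regions of SLC16A1, a lactate transporter gene (-0.88 ± 0.19 at 89.8 kb and -1.01 ± 0.28 at 40.3 kb), and 2 of PKM, a pyruvate kinase gene (-1.16 ± 0.30 at 29.6 kb and -0.84 ± 0.26 at 24.3 kb).

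Among 11 genes of HIF subunits and oxygen sensing, 2 of 95 tested regions were higher at 2 h (2.11%, beside 1.28% of all regions tested and 0.856% higher). They were named for the coactivator gene CREBBP (0.58 ± 0.12, SE; adjusted p = 0.000331, DESeq2, authors' deposited table) and for CITED2, whose product competes with HIF for its coactivators (1.15 ± 0.30, at 687 kb). At 18 h against mock DESeq2 called 0 of 50 (the authors' deposited table), beside 0.121% of all regions tested, with 3 at an unadjusted p under 0.05. From 2 h to 18 h, 7 of 112 were lower (6.25%, beside 2.98% of all regions tested), 4 of them at the single gene CITED2, 2 at CREBBP and 1 at EPAS1, which encodes another alpha subunit (-0.54 ± 0.11 in the authors' deposited table). Both regions called at 2 h are among these 7, and the 2 h libraries enter both comparisons. The median log2 fold change of this list at 18 h was -0.14, beside -0.07 over all tested regions.

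Among 18 other hypoxia targets, DESeq2 called 0 of 71 tested regions at 18 h against mock (the authors' deposited table), with 5 at an unadjusted p under 0.05. The share called over all regions tested was 0.121%. From 2 h to 18 h, the called regions included 2 of STC2, a secreted glycoprotein gene (-0.40 ± 0.09 and -0.44 ± 0.12), and 1 of ADM, the adrenomedullin gene (-0.73 ± 0.22), all lower at 18 h in the authors' deposited table. The 1 that was higher belonged to DDIT4 in the authors' deposited table, a gene that encodes an inhibitor of mTOR signalling (0.38 ± 0.12 at 4.39 kb). Of the 13, 6 and 9 start regions tested at 2 h in the 3 lists, 0 were called, nor were any in the other comparisons.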

How the data were processed

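ATAC-seq libraries of A375 cells (3 groups of 2) were made and sequenced by a service provider, per the labels' protocols. The submitters' processing notes name the build hg38, bcl2fastq 2.17 and DESeq2; not given in the sources used here are the aligner, peak caller, read counter and any shift for Tn5.

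Analysed were the authors' 3 deposited tables of comparisons, of which 0 columns hold 1 library. Per the file headers they give the mean signal over libraries (normalised read counts), the deposited log2 fold change and its SE, the Wald statistic as a deposited score, and the deposited p-value with its adjusted p. The score equalled the fold change divided by its SE. Benjamini-Hochberg adjustment of the deposited p-values above each signal limit returned the deposited adjusted p, and the third table's log2 fold changes equalled the difference of the other 2, so 1 fit over 6 libraries stands behind the authors' values. The test planned for counts could not be used, and no model was fitted anew. Repeat rows of a region (numeric suffix) were dropped.

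Implied group levels solve the mean and both fold changes for 3 equally weighted groups; intervals are 95% normal intervals from the SE and cover what that SE covers. RefSeq spans, starts and promoters are of GRCh38.p14 and all 10 genes matched; whether the files count from 0 or 1 was not stated. Python 3.11.15, pandas 2.3.3 and scipy 1.17.1 were used, and the adjustment and centring code was tested on simulated data. Members, lists and the naming rule were chosen with earlier results of these data known. The rule named, for each gene, the start region, the strongest region, every called region or else that with the smallest p, and up to 6 called members per wider list. Part of the calls of the last wider list is not reported here, so its counts at 2 h and from 2 h to 18 h are left out.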

Additional observations from a re-analysis of the deposited data

Results flagged for a closer look

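A total of 10 regions differed between the exposures, in that the authors' comparison of 18 h with 2 h called the difference (adjusted p under 0.05, DESeq2). Their log2 fold changes, 18 h against 2 h, in the authors' deposited table were -1.08, -0.34, -0.42 and -1.001 for the SLC2A1 regions at 26.6, 22.3, 17.8 and 49.3 kb, -1.01 for the VEGFA region at 80.9 kb, and -0.50 and -0.75 for the NDRG1 regions at 58.5 and 109 kb. They were 1.03 for the PFKFB3 region at 102 kb, 0.44 for the ENO1 region at 32.1 kb and 0.50 for the HIF1A region at 32.6 kb. Of these, 1 (ENO1) was also called at 2 h against mock and 1 (SLC2A1 at 22.3 kb) at 18 h against mock. With 2 libraries a group, no group was large enough to look for a library far from the others.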

How the results depend on the processing

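At 2 h the count of 2 calls became 1 at an adjusted p under 0.01 and 1 with no filter on mean signal. It became 0 over regions that overlap the RefSeq span of one of the 10 listed genes. At 18 h against mock the 1 call became 0 under both centrings (on the median tested region, and within 20 bins of mean signal) and 0 without the SLC2A1 regions, an alternative added after the data were seen. For 18 h against 2 h the 10 calls became 5 at an adjusted p under 0.01 and 6 without the SLC2A1 regions. They became 4 over regions that overlap the RefSeq span of a listed gene (fewer regions are counted there). The other alternatives left each count within 1.5 times, and every median log2 fold change moved by less than the members' median SE. Over all regions, the calls at 18 h against mock were 67 as deposited, 11 under both centrings and 35 with no filter, and at an adjusted p under 0.01, 506 of the 1100 calls at 2 h, 24 of the 67 at 18 h against mock and 2120 of the 3758 for 18 h against 2 h were left. With the threshold at 0.10 they were 1768 at 2 h and 176 at 18 h against mock.

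Of the 13 calls of single regions, 11 held under each centring; those lost were NDRG1 at 87.7 kb (2 h) and SLC2A1 at 22.3 kb (18 h). With no filter 4 were lost, and the NDRG1 region at 111 kb, under the signal limit as deposited, gained one (-1.49, adjusted p = 0.024, Benjamini-Hochberg, 18 h against 2 h). Within bins of mean signal, the VEGFA start at 2 h turned from -0.07 to 0.0262 and that of NDRG1 from -0.06 to 0.0298. Centred on the median, the NDRG1 start at 18 h turned from -0.07 to 0.0019. None of them was called, and each change of sign follows from the median that the centring subtracts. No paired analysis was possible because no column holds 1 library. For the same reason leaving out libraries, TMM scaling and another count tool were not run. Mean signal limits what can be seen: of 224 regions 102, 57 and 128 were tested.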
